A study of Mus musculus with 13 samples.

Results

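Laminins and integrins were followed through whole kidneys of 2 mouse models of polycystic kidney disease and, where listed, through a collecting duct cell line. The genes were chosen by name: every protein-coding row named as a laminin alpha, beta or gamma chain or as an integrin alpha or beta subunit. This gave 37 of the 28183 genes in the kidney table, namely 11 laminin chains, 18 integrin alpha subunits and 8 integrin beta subunits, and 6 of the 2016 genes in the cell table. All mice were C57BL/6 and all kidneys carried floxed alleles, so knockout and control kidneys of a model differed by the Cre transgene.

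The Pkd1 knockout kidneys (KSP/Cre+;Pkd1f/f) and their controls (KSP/Cre-;Pkd1f/f) were taken at postnatal day 10. The Pkd2 knockout kidneys (Pkhd1/Cre+;Pkd2f/f) and their controls (Pkhd1/Cre-;Pkd2f/f) were taken at postnatal day 20. Each of these groups had 2 libraries. KSP is the promoter of the kidney cadherin gene Cdh16 and drives Cre in tubular epithelium, and the Pkhd1 promoter drives it mainly in collecting duct, so other cells of these kidneys keep the floxed gene. Mouse inner medullary collecting duct cells (mIMCD-3) were transfected with 10 nM of a gapmer, an antisense oligonucleotide that directs RNA cleavage, and kept for 48 hours. In 3 libraries the gapmer was aimed at the long non-coding RNA Hoxb3os and in 2 it was a negative control. No label says that libraries of a group came from separate animals or cultures, so each p-value below measures the spread between these libraries. That spread may be technical, except in the groups whose libraries differed in the Y-linked values given below.

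Laminins are trimers of an alpha, a beta and a gamma chain that polymerise into the sheet on which epithelia rest, the basement membrane. Integrins are alpha and beta pairs in the cell membrane that bind laminin, collagen, fibronectin or partners on other cells and connect them to the actin or keratin skeleton. In the kidney, tubules, glomeruli and vessels each lay down their own laminin trimers, the trimer changes while the glomerular basement membrane matures, and integrins with the Itgb1 subunit are needed for tubules to branch and keep their shape. Several integrins belong to blood cells, and their RNA in a whole kidney can come from those cells. In whole tissue, fewer cells of a type and less RNA per cell cannot be told apart.

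The deposited kidney values are a scaled signal per gene, given here as scaled values. The recovered depth was 30700000 to 53900000 reads in knockout libraries and 49600000 to 94400000 reads in control libraries. Mitochondrial RNA took 22.0% to 34.7% of the signal in knockout libraries and 27.4% to 41.4% in control libraries. Summed Y-linked values lay between 149 and 183 in both Pkd1 knockout libraries, 1 Pkd2 knockout library and 1 Pkd1 control library. In the other libraries they lay between 0.0221 and 10.4, so sex was not balanced over the groups. Within groups, the Pkd2 knockout libraries had 169 and 0.0462 and the Pkd1 control libraries 155 and 10.4. The libraries of these 2 groups were thus not repeats of the same sample, and their spread may also hold a difference of sex. Over the whole gene, Pkd1 had 24.1 and 26.0 in Pkd1 knockout kidneys, against 31.1 and 22.7 in their controls (log2 difference -0.08 ± 0.20 SE, limma adjusted p = 0.817), and Pkd2 had 50.7 and 53.3 in Pkd2 knockout kidneys, against 69.0 and 61.2 in their controls (-0.32 ± 0.21, limma adjusted p = 0.332). A value over the whole gene does not read exons removed in some cells, so these values do not check the genotype labels. Although titles of the Pkd2 knockout samples hold the word WT, the genotype given for them has the Cre transgene, and the genotype was followed. Markers of podocytes, proximal tubule, thick ascending limb and collecting duct were present in every library. The 5 podocyte markers summed to 195.5 and 185 in Pkd1 knockout kidneys, against 263 and 253 in their controls. In Pkd2 knockout kidneys they summed to 129 and 130, against 149 and 152.5 in their controls. Synpo, a large part of these sums, was higher in Pkd2 knockout kidneys, at 73.9 and 80.5, against 54.7 and 60.2 in their controls. The other 4 podocyte markers were lower there, among them Podxl at 35.3 and 29.1, against 65.6 and 64.8. The 3 intercalated cell markers summed to 18.5 and 15.1 in Pkd1 knockout kidneys, against 33.3 and 32.3 in their controls. In Pkd2 knockout kidneys these had 23.9 and 21.2, against 43.8 and 56.7 in their controls. Sums over the other marker lists are given with the results below.

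Most of the laminin and integrin genes that passed the test rose in the knockout kidneys. A gene was called where limma's adjusted p (Benjamini-Hochberg over all 14637 genes tested) was below 0.05, and 34 of the 37 genes passed the filter on low values. In Pkd1 knockout kidneys 7 members rose, 2 fell and 25 were not called. That is 9 of 34, where 10.6% of all tested genes were called. In Pkd2 knockout kidneys 11 rose, 1 fell and 22 were not called, and 17.7% of all tested genes were called. Calls upward made up 5.11% of all tested genes in the Pkd1 model and 9.54% in the Pkd2 model, and calls downward 5.48% and 8.13%. The median log2 difference of the members was 0.27 in the Pkd1 model and 0.47 in the Pkd2 model, while that of all tested genes was 0.00 and -0.01. Knockout and control values did not overlap for 18 higher and 8 lower members in the Pkd1 model, where 29.1% and 29.2% of all tested genes did so, and for 24 higher and 5 lower members in the Pkd2 model, where 31.9% and 30.9% did. Itga2, Itga11 and Itgax passed the filter only through knockout libraries, so their passing rested on high knockout values.

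In all, 6 members rose in both models, among them Lama3, Lamb3, Itga3, Itgb4 and Itgam, and Lama1 fell in both. Lama5 rose and Lamc3 fell in the Pkd1 model without a call in the Pkd2 model, and Itga2, Itga11, Itgal, Itgax and Itgb2 rose in the Pkd2 model without a call in the Pkd1 model. By family, 4 of 11 laminin chains rose and 2 fell in the Pkd1 model, and 3 rose and 1 fell in the Pkd2 model. Of the 16 tested alpha subunits 2 rose in the Pkd1 model and 6 in the Pkd2 model, and of the 7 tested beta subunits 1 and 2. Leaving out Itga2, Itga11 and Itgax, which passed the filter only through knockout libraries, 3 of 13 alpha subunits and 8 of 31 members rose in the Pkd2 model, and 2 of 13 and 7 of 31 in the Pkd1 model. Without the filter on low values all 37 members are tested, and limma called 0 in the Pkd1 model (19 at an unadjusted p below 0.05, smallest adjusted p = 0.0643), while edgeR called 9 and DESeq2 14 of the filtered members. In the Pkd2 model without the filter, 3 were called, among them Itgam, and Itgae with values below 1 in every library. Over all 28183 genes limma called 394 in the Pkd1 model and 1292 in the Pkd2 model without the filter. With the filter it called 1550 and 2587 of 14637 genes. For each library left out below, the number of calls over all tested genes moved the same way as that of the members. The number of calls rested on single libraries: without Pkd1 control replicate 2, 2 members were called in the Pkd1 model, and without Pkd2 control replicate 1, 2 were called in the Pkd2 model. The Pkd2 model gave 3 called members without Pkd2 control replicate 2 and 6 without Pkd2 knockout replicate 2. The Pkd1 model gave 5 called members without Pkd1 control replicate 1, 4 without Pkd1 knockout replicate 1, 5 without Pkd1 knockout replicate 2, 15 without Pkd2 knockout replicate 1 and 14 without Pkd2 knockout replicate 2.

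**Figure D1:**
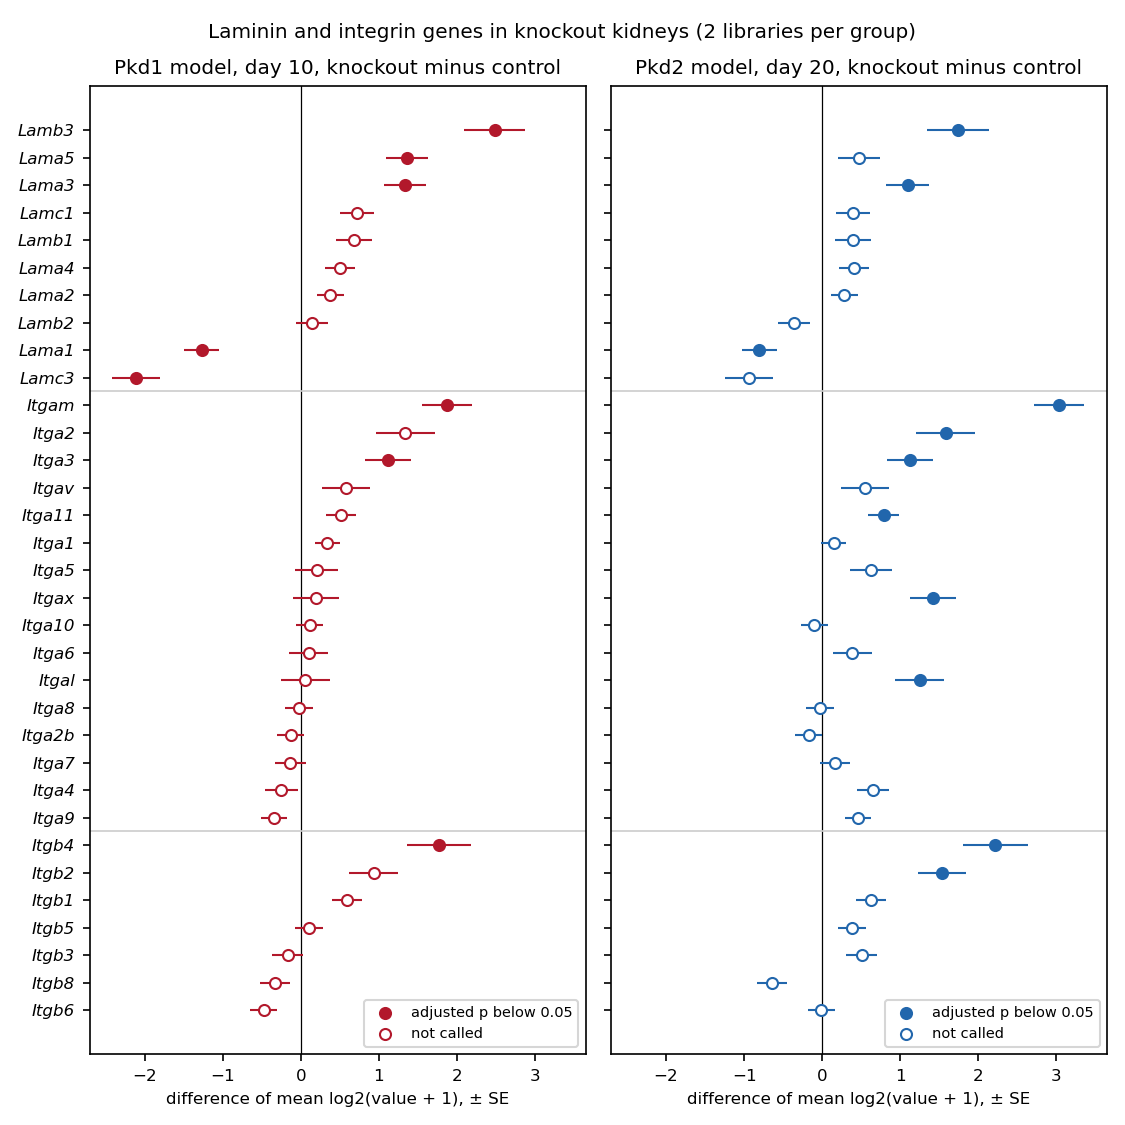
Difference of mean log2(value + 1), knockout minus control, with its SE for 33 of the 34 tested laminin and integrin genes (laminins above, alpha subunits in the middle, beta subunits below), Pkd1 model at left and Pkd2 model at right, 2 libraries per group. Filled points are called (limma adjusted p below 0.05): Lamb3, Itgb4 and Itgam lie far to the right in both panels, and Lama1 to the left in both.

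Lama3 and Lamb3 encode an alpha and a beta chain of the laminin that anchors skin and other surface epithelia. Both genes rose in both models. Lamb3 (chr1:193207699-193343878, plus strand, mm10) had scaled values of 19.8 and 29.1 in Pkd1 knockout kidneys, against 5.32 and 2.17 in their controls. In Pkd2 knockout kidneys Lamb3 had 9.70 and 20.5, against 3.77 and 3.31 in their controls. Every knockout library lay above every control library of either model, and within the Pkd2 knockout group replicate 2 was about as high as the Pkd1 knockouts. The log2 difference was 2.48 ± 0.39 (SE, limma adjusted p = 0.00663) in the Pkd1 model and 1.74 ± 0.39 (limma adjusted p = 0.0188) in the Pkd2 model. The Pkd1 call was lost without Pkd1 control replicate 2 (limma adjusted p = 0.0572), and the Pkd2 call without either Pkd2 control library (0.0823 and 0.117) or Pkd2 knockout replicate 2 (0.111).

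Lama3 had 18.6 and 22.4 in Pkd1 knockout kidneys, against 8.11 and 6.87 in their controls. It had 13.2 and 24.4 in Pkd2 knockout kidneys, against 6.99 and 8.82 in their controls. No knockout library fell within the range of the controls. The log2 difference was 1.34 ± 0.27 (limma adjusted p = 0.0185) and 1.10 ± 0.27 (limma adjusted p = 0.0262) in the Pkd1 and Pkd2 models. Each of the 4 Pkd1 model libraries decided its call there (limma adjusted p from 0.0590 to 0.110 without one of them). In the Pkd2 model the call was lost without either control library (0.154 and 0.0922) or without knockout replicate 2 (0.120), where the log2 difference was 0.68.

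Itga3 and Itgb4 encode subunits of the epithelial receptors for this laminin. The product of Itga3 pairs with that of Itgb1, and the product of Itgb4 pairs with that of Itga6 in the hemidesmosome, which holds keratin filaments to the basement membrane. Itgb4 (chr11:115974709-116008412) had 63.1 and 69.8 in Pkd1 knockout kidneys, against 24.5 and 14.2 in their controls, and 39.7 and 108 in Pkd2 knockout kidneys, against 12.0 and 14.7 in their controls. The groups did not overlap, and Pkd2 knockout replicate 2 was the highest library. Its log2 difference was 1.77 ± 0.42 (limma adjusted p = 0.0308) in the Pkd1 model and 2.22 ± 0.42 (limma adjusted p = 0.00901) in the Pkd2 model. The Pkd1 call was lost without any 1 of the 4 Pkd1 libraries or of the 2 Pkd2 control libraries (limma adjusted p from 0.0523 to 0.164), and the Pkd2 call without either Pkd2 control library (0.0654 and 0.0521).

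Itga3 (chr11:95044474-95076801) had 105 and 101 in Pkd1 knockout kidneys, against 56.7 and 39.0 in their controls, and 71.0 and 134 in Pkd2 knockout kidneys, against 42.0 and 46.7 in their controls. Again no knockout library reached down to the controls. The log2 difference was 1.12 ± 0.29 in both models (limma adjusted p = 0.0453 for Pkd1 and 0.0320 for Pkd2). The Pkd1 call was lost without any 1 of the 4 Pkd1 libraries or the 2 Pkd2 control libraries (limma adjusted p from 0.0796 to 0.210), under quantile scaling (0.0539) and by edgeR (0.0546). The Pkd2 call was lost without either Pkd2 control library (0.158 and 0.136) or knockout replicate 2, where the log2 difference was 0.67 (limma adjusted p = 0.147).

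The pairing partners Itga6 and Itgb1 were not called in either model. Itga6 had 211 and 188 in Pkd1 knockout kidneys, against 188 and 182 in their controls, and 149 and 251 in Pkd2 knockout kidneys, against 150 and 145 in their controls (log2 differences 0.11 ± 0.25 and 0.39 ± 0.25, limma adjusted p = 0.820 and 0.316). Itgb1, the beta subunit shared by most receptors for matrix, had 396 and 381 in Pkd1 knockout kidneys, against 242 and 274 in their controls, and 329 and 368 in Pkd2 knockout kidneys, against 235 and 214 in their controls. Its groups did not overlap in either model, but the differences of 0.59 ± 0.20 and 0.63 ± 0.20 missed the threshold (limma adjusted p = 0.0908 and 0.0573). The 4 markers of collecting duct principal cells summed to 49.5 and 114 in Pkd1 knockout kidneys, against 57.4 and 44.2 in their controls, and to 92.4 and 102 in Pkd2 knockout kidneys, against 89.6 and 64.4 in their controls. The water channel gene Aqp2 made much of this spread, at 4.41 and 56.2 in Pkd1 knockout kidneys, against 28.4 and 21.5 in their controls. Of the 4 markers 2 rose in the Pkd1 model and 3 in the Pkd2 model. Among them the vasopressin receptor gene Avpr2 had 12.6 and 15.4 in Pkd1 knockout kidneys, against 3.75 and 2.67 in their controls, and 15.4 and 14.9 in Pkd2 knockout kidneys, against 9.23 and 7.08 in their controls. Their part in the laminin and receptor results was not tested.

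**Figure D2:**
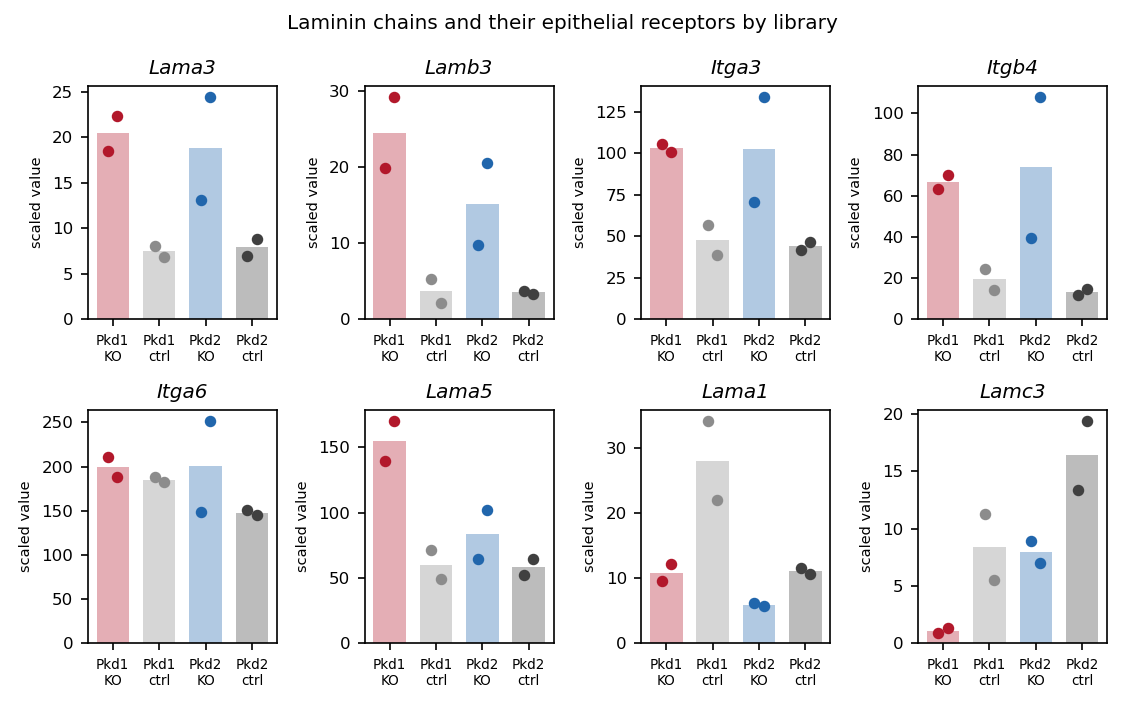
Scaled value in each library (points) and group mean (bars) for 8 laminin chains and epithelial receptor subunits, in Pkd1 knockout, Pkd1 control, Pkd2 knockout and Pkd2 control kidneys, 2 libraries each. Lama3, Lamb3, Itga3 and Itgb4 lie above their controls in every knockout library, while Lama1 and Lamc3 lie below.

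The stretch before the transcription start is shown for 2 of the members that rose in both models. Both windows hold the PU.1 letters described below. Itga3, which also rose in both models and had listed windows, is not printed. Windows of 250 bases before the start were listed for 23 of the 37 members (26 windows, RefSeq, GRCm38.p6). The letters of 4 motifs were searched on both strands. GAGGAA, which reads TTCCTC on the other strand, is the core bound by PU.1, a factor of myeloid cells known to act on the Itgam promoter. TGANTCA is the AP-1 site, and GGAATG, which reads CATTCC on the other strand, is the TEAD site. GGGCGG, which reads CCGCCC on the other strand, is the GC box bound by Sp1. The windows are at chr1:193301744-193301993, plus strand, for Lamb3 (inside the gene as the files span it) and at chr7:128062390-128062639, plus strand, for Itgam, and capitals mark the PU.1 letters of either strand.
Lamb3: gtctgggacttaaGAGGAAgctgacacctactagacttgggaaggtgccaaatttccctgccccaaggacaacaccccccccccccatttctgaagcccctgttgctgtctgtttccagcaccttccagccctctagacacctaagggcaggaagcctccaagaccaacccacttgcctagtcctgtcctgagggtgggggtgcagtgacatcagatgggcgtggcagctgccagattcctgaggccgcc
Itgam: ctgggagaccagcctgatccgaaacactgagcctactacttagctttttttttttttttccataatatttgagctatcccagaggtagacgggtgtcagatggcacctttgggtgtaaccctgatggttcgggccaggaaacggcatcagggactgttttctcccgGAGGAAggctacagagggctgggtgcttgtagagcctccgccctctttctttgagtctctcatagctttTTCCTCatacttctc
The Itgam window held the PU.1 letters at 2 places, -84 to -79 and -15 to -10 from the start, and the Lamb3 window at -237 to -232. Lamb3 and Itga3 each had 2 listed starts, and the window of the most upstream start is described. That of Itga3 held GGGCGG at -178 to -173, -144 to -139 and -35 to -30 and none of the PU.1 letters. In the other window, GGAATG stood on either strand for Lamb3 and the PU.1 letters for Itga3. The PU.1 letters stood in 23.3% of all 32851 windows and in 13 of the 26 windows of members. TGANTCA was found in 6.75% of all windows and in 1 window of the members, and GGAATG in 12.6% of all and in 3. GGGCGG stood in 32.7% of all windows and in 9 of the members, among them the Itgam window at -47 to -42, where it is not in capitals. A match describes letters and is no evidence of binding.

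Among the other alpha chains, Lama5 rose in the Pkd1 model and Lama1 fell in both. Lama5 is the main alpha chain of mature tubular and glomerular basement membranes. It had 140 and 170 in Pkd1 knockout kidneys, against 71.6 and 48.9 in their controls, and 64.7 and 102 in Pkd2 knockout kidneys, against 52.4 and 64.7 in their controls. The Pkd1 groups stood well apart (log2 difference 1.37 ± 0.27, limma adjusted p = 0.0165), while Pkd2 knockout replicate 1 was level with a control (0.48 ± 0.27, limma adjusted p = 0.258). The Pkd1 call was lost without Pkd1 control replicate 2 (limma adjusted p = 0.109), knockout replicate 1 (0.0520) or knockout replicate 2 (0.0818).

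Lama1 is the alpha chain of the first laminin of the embryo and of the tubules of the developing kidney. It had 9.53 and 12.2 in Pkd1 knockout kidneys, against 34.1 and 22.0 in their controls, and 6.22 and 5.67 in Pkd2 knockout kidneys, against 11.6 and 10.6 in their controls. All 4 knockout libraries lay below their controls (log2 difference -1.27 ± 0.23, limma adjusted p = 0.0105, in the Pkd1 model and -0.80 ± 0.23, limma adjusted p = 0.0407, in the Pkd2 model). The Pkd1 call was lost without Pkd1 control replicate 1 (limma adjusted p = 0.0776) or knockout replicate 1 (0.0699), and the Pkd2 call without Pkd2 control replicate 1 (0.186), control replicate 2 (0.162) or knockout replicate 2 (0.162). The Pkd2 call was also lost with mitochondrial and small RNAs left out (limma adjusted p = 0.0554), and no member fell there under that setting.

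Lamc3, a gamma chain with a narrower range of tissues, had 0.868 and 1.31 in Pkd1 knockout kidneys, against 11.3 and 5.55 in their controls. This was the lowest group of the gene by a wide margin. The log2 difference of -2.11 ± 0.31 (limma adjusted p = 0.00514) was called without any 1 of the 8 libraries. In the Pkd2 model Lamc3 had 8.91 and 7.01 in knockout kidneys, against 13.4 and 19.4 in their controls, which did not overlap but were not called (-0.94 ± 0.31, limma adjusted p = 0.0672). The summed proximal tubule markers were lower in the same libraries, at 498 and 593 in Pkd1 knockout kidneys, against 1507 and 1738 in their controls, and at 1148 and 853 in Pkd2 knockout kidneys, against 2209 and 2873 in their controls. The 3 markers of the thick ascending limb summed to 274 and 453 in Pkd1 knockout kidneys, against 1031 and 825 in their controls, and to 941 and 793 in Pkd2 knockout kidneys, against 4125 and 4107 in their controls. Their part in the lower Lama1 and Lamc3 values was not tested.

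Per kb of exon, the make-up of the alpha and beta chain classes differed between knockout and control kidneys. Of the alpha chains per kb, Lama5 took 49.8% and 54.3% in Pkd1 knockout kidneys, against 34.3% and 32.0% in their controls. Its shares of 34.2% and 41.5% in Pkd2 knockout kidneys overlapped those of 33.7% and 37.2% in their controls. Lama1 took 4.01% and 4.57% in Pkd1 knockout kidneys, against 19.2% and 16.9% in their controls, and 3.87% and 2.71% in Pkd2 knockout kidneys, against 8.78% and 7.20% in their controls. The beta class kept Lamb1 at 83.1% to 87.2% in knockout libraries and 80.8% to 88.0% in control libraries. Lamb3 stayed a minor beta chain, at 4.36% to 6.95% in knockout libraries and 0.944% to 1.93% in control libraries. Shares of a class add to a fixed sum, so they were not tested apart from the levels.

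**Figure D3:**
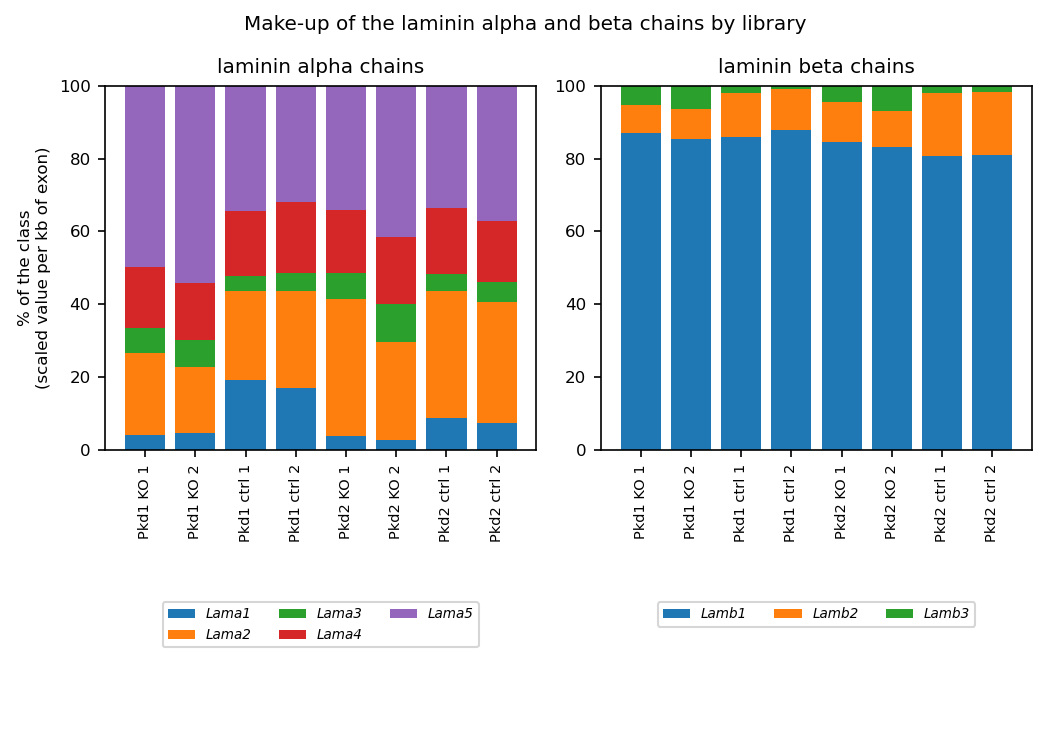
Share of each chain in the summed scaled values per kb of exon of the laminin alpha and beta chains, for each of the 8 kidney libraries (1 bar per library, knockout libraries left of their controls). Lama5 takes a larger share of the alpha class in the Pkd1 knockout libraries (49.8% and 54.3%) than in their controls (34.3% and 32.0%), and Lama1 a smaller share of the alpha class than in the controls of the same model.

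The other 5 laminin chains were not called in either model. Lamb1 had 498 and 583 in Pkd1 knockout kidneys, against 372 and 303 in their controls, and 282 and 367 in Pkd2 knockout kidneys, against 237 and 251 in their controls (log2 differences 0.68 ± 0.23 and 0.40 ± 0.23, limma adjusted p = 0.0961 and 0.265). Lamc1, its usual partner, had 166 and 192 in Pkd1 knockout kidneys, against 122 and 95.0 in their controls, and 83.5 and 116 in Pkd2 knockout kidneys, against 77.4 and 72.1 in their controls (0.72 ± 0.22 and 0.39 ± 0.22, limma adjusted p = 0.0678 and 0.245). Both were above their controls in each knockout library without passing the test. Lama2, the muscle and mesenchymal chain, differed by 0.38 ± 0.18 in the Pkd1 and 0.29 ± 0.18 in the Pkd2 model. Lama4, the vessel chain, differed by 0.50 ± 0.20 and 0.41 ± 0.20. Knockout and control groups of these 2 chains did not overlap. The 6 endothelial markers summed to 251 and 325 in Pkd1 knockout kidneys, against 417 and 368 in their controls. In Pkd2 knockout kidneys they summed to 358 and 290, against 436.5 and 356 in their controls. Their part in the Lama4 values was not tested. Lamb2, the beta chain of the mature glomerular basement membrane, had 26.7 and 34.1 in Pkd1 knockout kidneys, against 32.0 and 23.3 in their controls, and 22.6 and 27.0 in Pkd2 knockout kidneys, against 31.0 and 33.1 in their controls (0.14 ± 0.21 and -0.36 ± 0.21).

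Of the leukocyte integrins, Itgam rose in both models, and Itgb2, Itgal and Itgax rose in the Pkd2 model. Itgam encodes the alpha subunit of the complement receptor of macrophages and neutrophils. It had 12.9 and 15.9 in Pkd1 knockout kidneys, against 4.23 and 2.32 in their controls, and 21.2 and 36.3 in Pkd2 knockout kidneys, against 3.28 and 1.85 in their controls. The groups were far apart in both models. The log2 difference was 1.88 ± 0.32 (limma adjusted p = 0.00901) in the Pkd1 model and 3.04 ± 0.32 (limma adjusted p = 0.000977) in the Pkd2 model. The Pkd2 call held under all 18 alternative settings, and the Pkd1 call was lost without Pkd1 control replicate 2 (limma adjusted p = 0.0765).

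Itgb2, the beta subunit that leukocyte alpha subunits share, had 2.99 and 4.11 in Pkd1 knockout kidneys, against 1.44 and 1.29 in their controls, and 4.74 and 10.9 in Pkd2 knockout kidneys, against 1.72 and 1.99 in their controls. Its groups did not overlap in either model, yet only the Pkd2 difference was called (1.54 ± 0.31, limma adjusted p = 0.0121, and 0.93 ± 0.31, limma adjusted p = 0.0918, in the Pkd1 model). The Pkd2 call was lost without control replicate 1 (limma adjusted p = 0.0776) or control replicate 2 (0.0695), and its log2 difference was 1.01 without knockout replicate 2.

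Itgal, the alpha subunit of the receptor that lymphocytes use to bind Icam1, had 2.69 and 2.33 in Pkd1 knockout kidneys, against 2.78 and 1.99 in their controls, and 4.60 and 8.56 in Pkd2 knockout kidneys, against 1.35 and 3.00 in their controls. The Pkd1 groups overlapped (0.06 ± 0.31, limma adjusted p = 0.922), and the Pkd2 groups did not (1.25 ± 0.31, limma adjusted p = 0.0274). The Pkd2 call was lost without control replicate 1 (log2 difference 0.87, limma adjusted p = 0.173) or knockout replicate 2 (0.87, limma adjusted p = 0.160).

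Itgax, a subunit of dendritic cells and some macrophages, was near 0 outside the Pkd2 knockouts. It had 0.382 and 0.127 in Pkd1 knockout kidneys, against 0.139 and 0.0437 in their controls, and 1.29 and 3.70 in Pkd2 knockout kidneys, against 0.208 and 0.243 in their controls. The Pkd2 difference was 1.42 ± 0.30 (limma adjusted p = 0.0142), lost without either Pkd2 control library (0.0809 and 0.0840), and the gene could not be tested without either Pkd2 knockout library, since it passed the filter only through them. Itgal, Itgam, Itgax and Itgad lie together on chromosome 7, between 127296260 and 128223816 (GRCm38). Itgad was listed at 0 to 0.0925, and Itgae and Itgb7, which form a receptor of lymphocytes in epithelia, at 0.0902 to 0.645 and 0.106 to 0.601, all below the filter.

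A list of 10 leukocyte markers (Ptprc, Cd68, Adgre1, Csf1r, C1qa, C1qb, Mrc1, Cd3e, Cd79a and S100a8) was set beside these integrins. They summed to 121 and 117 in Pkd1 knockout kidneys, against 47.2 and 44.6 in their controls, and to 188 and 241 in Pkd2 knockout kidneys, against 51.0 and 52.6 in their controls. Of the 8 that passed the filter, 7 rose in each model, where 5.11% (Pkd1 model) and 9.54% (Pkd2 model) of all tested genes rose. Among the 8, S100a8 stayed below 1 in every control library, so it passed the filter only through knockout libraries. Itgal, Itgax and Itgb2 were not called in the Pkd1 model. Cd3e, a T cell marker, was at 0 in both Pkd1 knockout libraries and in Pkd2 control replicate 2. The part of leukocyte number in the integrin values was not tested.

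**Figure D4:**
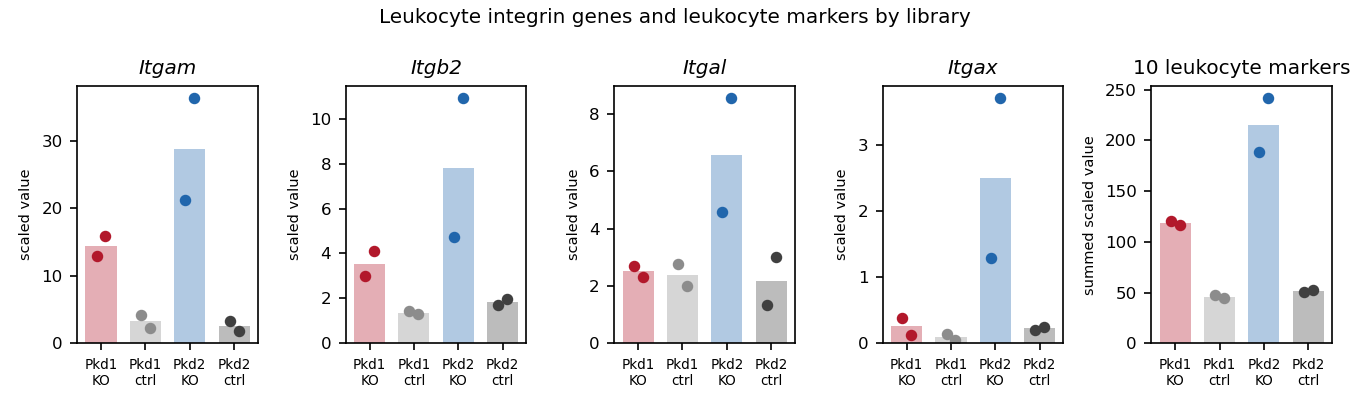
Scaled value in each library (points) and group mean (bars) of 4 leukocyte integrin genes, and the summed scaled value of 10 leukocyte markers, in the 4 kidney groups with 2 libraries each. Itgam and the marker sum are higher in the knockout libraries of both models, while Itgal and Itgax are higher mainly in the Pkd2 knockouts.

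A pair of collagen receptor subunits were called in the Pkd2 model, both at low values. Neither reached 1 in any control library, so both passed the filter only through knockout libraries. The values that let them be tested are thus the high values tested, and these calls are no independent support. Itga2, an epithelial and platelet collagen receptor, had 3.93 and 3.70 in Pkd1 knockout kidneys, against 0.992 and 0.809 in their controls, and 1.93 and 6.73 in Pkd2 knockout kidneys, against 0.806 and 0.397 in their controls. Every knockout library was above every control. Its difference was 1.58 ± 0.38 (limma adjusted p = 0.0229) in the Pkd2 model and 1.34 ± 0.38 (limma adjusted p = 0.0568) in the Pkd1 model. The Pkd2 call was lost without control replicate 1 (limma adjusted p = 0.0752) or control replicate 2 (0.155), and the log2 difference was 0.89 without knockout replicate 2.

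Itga11, the collagen receptor subunit of fibroblasts, had 1.27 and 1.04 in Pkd1 knockout kidneys, against 0.574 and 0.437 in their controls, and 1.46 and 0.763 in Pkd2 knockout kidneys, against 0.260 and 0.154 in their controls. Its groups did not overlap in either model (0.51 ± 0.20, limma adjusted p = 0.130, and 0.79 ± 0.20, limma adjusted p = 0.0261). With a Y-linked covariate the Pkd2 difference was not called. The Pkd2 call was lost without control replicate 1 (limma adjusted p = 0.103), control replicate 2 (0.172) or knockout replicate 1 (0.0616). The 6 fibroblast and myofibroblast markers summed to 2219 and 1968 in Pkd1 knockout kidneys, against 1221 and 829 in their controls. In Pkd2 knockout kidneys they summed to 1212 and 1396, against 550 and 597 in their controls. By limma 2 of the 6 rose and 0 fell in the Pkd1 model, and 3 rose and 0 fell in the Pkd2 model. Pdgfra was lower in Pkd1 knockout kidneys, at 98.3 and 123, against 169 and 144 in their controls. Pdgfrb had 46.6 and 63.5 there, against 81.6 and 54.2. The part of these markers in the Itga11 result was not tested.

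The 4 platelet markers summed to 6.53 and 5.21 in Pkd1 knockout kidneys, against 1.61 and 2.14 in their controls, and to 6.03 and 4.42 in Pkd2 knockout kidneys, against 1.07 and 1.35 in their controls. Most of each sum was Pf4, the 1 marker that passed the filter, at 6.11 and 4.91 in Pkd1 knockout kidneys, against 1.49 and 1.97 in their controls, and at 5.61 and 3.79 in Pkd2 knockout kidneys, against 0.910 and 1.26 in their controls. Gp9 stayed below 0.1 in every library, Gp1ba was at 0 in 5 libraries, and the platelet subunit gene Itga2b was not called in either model. The part of platelets in the Itga2 result was not tested. The 2 other collagen receptor subunits, Itga1, which lies beside Itga2 on chromosome 13, and Itga10 of cartilage, were not called in either model, with log2 differences between -0.10 and 0.34.

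None of the subunits that bind fibronectin, vitronectin or latent TGF-beta was called in either model. Itgav, which pairs with several beta subunits, had 131 and 137 in Pkd1 knockout kidneys, against 81.9 and 97.5 in their controls, and 151 and 310 in Pkd2 knockout kidneys, against 138 and 158 in their controls (log2 differences 0.58 ± 0.30 and 0.55 ± 0.30, limma adjusted p = 0.259 and 0.245). Its partner Itgb8 was lower in each knockout library than in its controls, with 23.5 and 26.1 in Pkd1 knockout kidneys, against 28.3 and 34.8, and 79.7 and 60.7 in Pkd2 knockout kidneys, against 114 and 104 (-0.33 ± 0.19 and -0.64 ± 0.19, limma adjusted p = 0.309 and 0.0514). Itgb6, the epithelial partner of Itgav, had differences of -0.48 ± 0.17 (limma adjusted p = 0.116) and -0.01 ± 0.17, while Itgb5 differed by 0.11 ± 0.18 and 0.38 ± 0.18 and Itgb3 by -0.16 ± 0.20 and 0.51 ± 0.20.

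Itga8, the mesenchymal receptor for nephronectin, had overlapping groups in both models, with 92.1 and 115 in Pkd1 knockout kidneys, against 113 and 96.6 in their controls, and 47.7 and 51.3 in Pkd2 knockout kidneys, against 53.4 and 47.3 in their controls (-0.02 ± 0.18 in each, limma adjusted p = 0.955 and 0.945). The remaining alpha subunits were Itga4 and Itga9, receptors for Vcam1 and tenascin, Itga5 for fibronectin, Itga7 of muscle and Itga2b of platelets. Their log2 differences lay between -0.34 and 0.20 in the Pkd1 model and between -0.17 and 0.65 in the Pkd2 model, and none was called.

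Per kb of exon, the order of the members within a library group was led by Itgb1 everywhere, at 95.3 in Pkd1 knockout, 63.2 in Pkd1 control, 85.3 in Pkd2 knockout and 55.1 in Pkd2 control kidneys. Lamb1 came next in all 4 groups, at 54.5, 34.0, 32.7 and 24.6 in the same order. Itgb4 had 9.47 per kb in Pkd1 knockout kidneys, against 2.76 in their controls, and 10.5 in Pkd2 knockout kidneys, against 1.90 in their controls. Lama3 averaged 1.90 per kb and Lamb3 3.70 per kb in Pkd1 knockout kidneys, against 0.697 and 0.566 in their controls. In Pkd2 knockout kidneys Lama3 averaged 1.75 per kb and Lamb3 2.28 per kb, against 0.736 and 0.535 in their controls. The mean of Lama3 was thus the lower of the pair in knockouts and the higher in controls, with overlapping values of the pair in Pkd2 knockouts and Pkd1 controls, and this order was not tested.

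No member was called by limma or edgeR for a difference between the 2 models in its knockout effect, and DESeq2 called 1. The test of the Pkd1 effect minus the Pkd2 effect called 0 of 34 members by limma and 0 by edgeR. By limma 1 of all tested genes (0.00683%) was called. At an unadjusted limma p below 0.05 were 8 of the 34 members and 1207 of all 14637 tested genes. Of the members DESeq2 called Lamc3 alone (adjusted p = 0.0264), and it called 184 of all 14637 tested genes. The Lamc3 effect was lower in the Pkd1 model by limma too (difference of effects -1.17 ± 0.44, limma adjusted p = 0.482). The differences of effects were 0.89 ± 0.38 for Lama5, -1.16 ± 0.45 for Itgam, -1.19 ± 0.44 for Itgal, -1.23 ± 0.42 for Itgax and -0.80 ± 0.23 for Itga9. So a call in a single model, as for Lama5 or Itgal, is not shown to be particular to it. Age, floxed gene and Cre line changed together between the models and cannot be told apart.

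Among control kidneys, Itgb8 and Itgb6 were higher at day 20 (Pkd2 controls) than at day 10 (Pkd1 controls), and Itga4, Itga8, Itga9, Itgb3 and Lama1 were lower. By limma, 2 members were higher at day 20, 5 were lower and 27 were not called, where 12.3% of all tested genes were called (5.04% higher, 7.26% lower). The median difference of the members was -0.11. The ages did not overlap for 10 higher and 14 lower members, where 31.1% and 31.2% of all tested genes did so. Itgb8 had 114 and 104 at day 20, against 28.3 and 34.8 at day 10, and Itgb6 had 141 and 153 at day 20, against 74.4 and 68.0 at day 10. Both genes encode partners of Itgav that activate TGF-beta, and both stood apart by age (1.76 ± 0.19, limma adjusted p = 0.00133, and 1.04 ± 0.17, limma adjusted p = 0.00691). The Itgb8 call held under all 18 alternative settings, and that of Itgb6 was lost without either day 20 library (limma adjusted p = 0.0583 and 0.0756).

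The 5 lower genes were Itga4, Itga8, Itga9, Itgb3 and Lama1. Itga4 had 4.70 and 4.26 at day 20, against 13.4 and 11.5 at day 10 (-1.29 ± 0.21, limma adjusted p = 0.00633). Itga8, needed for the ureteric bud to enter the kidney mesenchyme, had 53.4 and 47.3 at day 20, against 113 and 96.6 at day 10 (-1.04 ± 0.18, limma adjusted p = 0.00838). Lama1 had 11.6 and 10.6 at day 20, against 34.1 and 22.0 at day 10 (-1.23 ± 0.23, limma adjusted p = 0.00998). In each the day 20 libraries lay well below the day 10 libraries. Itga9 (-0.76 ± 0.17, limma adjusted p = 0.0199) and Itgb3 (-0.72 ± 0.20, limma adjusted p = 0.0488) differed less. The 3 thick ascending limb markers, all called higher at day 20, summed to 4125 and 4107 at day 20, against 1031 and 825 at day 10. The 5 podocyte markers, 4 of them called lower at day 20, summed to 149 and 153 at day 20, against 263 and 253 at day 10. The 6 fibroblast and myofibroblast markers, 2 of them called lower at day 20, summed to 550 and 597 at day 20, against 1221 and 829 at day 10. Their part in the age differences was not tested.

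These age calls also rested on single libraries. The number of age calls over all tested genes fell as well where a control library was left out. Without Pkd1 control replicate 1 or Pkd2 control replicate 2, Itga4 was no longer called (limma adjusted p = 0.0652 and 0.0599), and without any 1 of Pkd1 control replicate 1, Pkd2 control replicate 1 and Pkd2 control replicate 2 neither were Itga8, Itga9 and Lama1 (limma adjusted p from 0.0591 to 0.149). The Itgb3 call held where either Pkd2 knockout library was left out, and was lost without any of the 6 others (limma adjusted p from 0.0598 to 0.350), and neither edgeR nor DESeq2 called it (adjusted p = 0.0714 and 0.0607). The number of called members was 2 without Pkd1 control replicate 1, 2 without Pkd2 control replicate 1 and 1 without Pkd2 control replicate 2. These are the same control libraries as in the knockout comparisons, and age cannot be told apart from the floxed gene and the mouse line. Sex was not balanced between the ages either. Summed Y-linked values were 0.104 and 0.0221 in the day 20 controls, against 155 and 10.4 in the day 10 controls. With a Y-linked covariate Itga9, Itgb3 and Lama1 were no longer called between ages. Lama1 values in the 4 groups were thus 9.53 and 12.2 in day 10 knockouts, against 34.1 and 22.0 in day 10 controls, and 6.22 and 5.67 in day 20 knockouts, against 11.6 and 10.6 in day 20 controls. Day 10 knockouts had about the Lama1 level of day 20 controls.

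**Figure D5:**
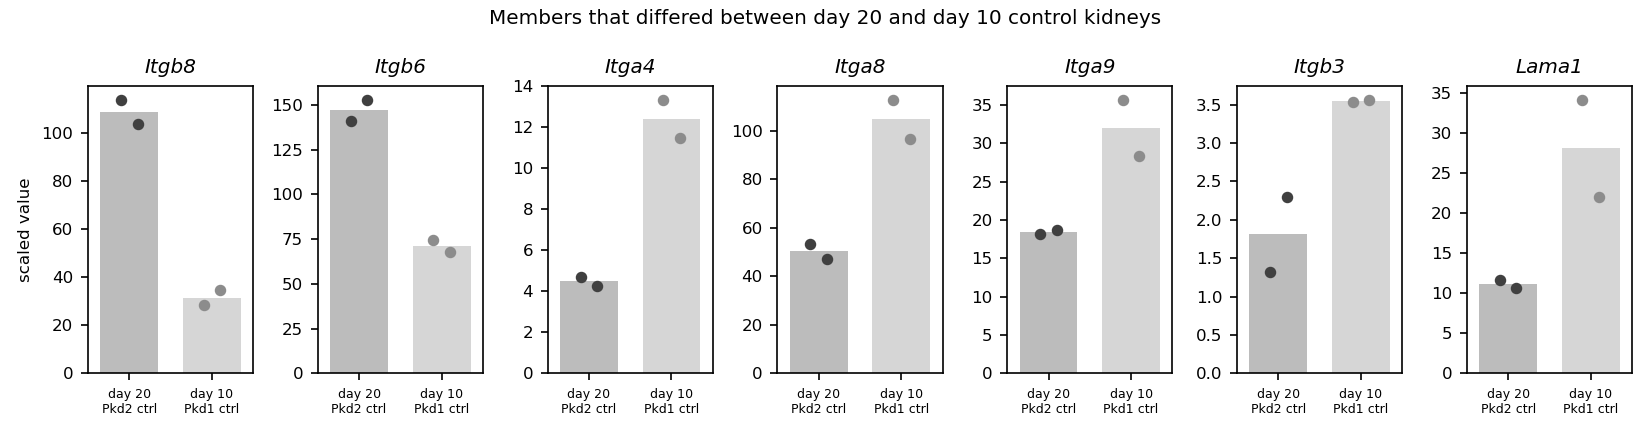
Scaled value in each library (points) and group mean (bars) of the 7 laminin and integrin genes called between day 20 control kidneys (Pkd2 model) and day 10 control kidneys (Pkd1 model), 2 libraries each. Itgb8 and Itgb6 are higher at day 20, the other 5 genes lower.

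Among the partners of laminins and integrins, the ligands Postn, Fbn1 and Tnc rose in both models. Of 65 other basement membrane and adhesion genes 63 were tested. In Pkd1 knockout kidneys 11 rose and 2 fell (median log2 difference 0.19), and in Pkd2 knockout kidneys 15 rose and 4 fell (0.27). Over all tested genes 5.11% rose and 5.48% fell in the Pkd1 model, and 9.54% rose and 8.13% fell in the Pkd2 model. Of the 12 tested ligands outside laminin and collagen, 6 rose and 1 fell in the Pkd1 model and 7 rose and 1 fell in the Pkd2 model. Postn, a matrix protein bound by Itgav integrins that is also 1 of the 6 fibroblast markers above, rose by 2.10 ± 0.20 (limma adjusted p = 0.00110) in Pkd1 and 1.81 ± 0.20 (limma adjusted p = 0.00103) in Pkd2 knockout kidneys. The fibrillin gene Fbn1 rose by 1.09 ± 0.19 and 1.37 ± 0.19, and the tenascin gene Tnc by 1.60 ± 0.39 and 2.27 ± 0.39. Icam1, the ligand of Itgal and Itgam receptors, rose in both models (1.59 ± 0.27, limma adjusted p = 0.00564, in the Pkd2 model and 0.98 ± 0.27, limma adjusted p = 0.0499, in the Pkd1 model), and Cdh1, the epithelial cadherin bound by the Itgae receptor, in the Pkd1 model (1.12 ± 0.28, limma adjusted p = 0.0381). Icam2 fell in the Pkd1 model (-0.72 ± 0.18) and Ltbp1, which holds latent TGF-beta, in the Pkd2 model (-0.63 ± 0.17). The Pkd1 calls of Icam1 and Icam2 were lost with a replicate block, and that of Cdh1 under quantile scaling. Without the filter on low values the Pkd1 calls of Icam1, Icam2, Cdh1 and Tnc were lost. The Pkd2 calls of Icam1, Tnc and Ltbp1 were lost there too.

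Of 21 other basement membrane genes 1 rose and 1 fell in the Pkd1 model, where 10.6% of all tested genes were called, and 2 rose and 1 fell in the Pkd2 model, where 17.7% were. Fras1, which holds epithelium to mesenchyme in the embryo, rose in both models (1.60 ± 0.27, limma adjusted p = 0.00840, and 1.68 ± 0.27, limma adjusted p = 0.00485), and Smoc2 in the Pkd2 model (1.06 ± 0.23, limma adjusted p = 0.0158). Tinag, a tubular basement membrane protein that binds laminin, fell in both (-1.09 ± 0.18, limma adjusted p = 0.00817, and -0.62 ± 0.18, limma adjusted p = 0.0449). The collagen chains Col4a1 to Col4a6, the nidogens Nid1 and Nid2 and the perlecan gene Hspg2 were not called in either model. Of 6 other laminin receptors and their partners, Sdc1 (1.04 ± 0.20 and 1.49 ± 0.20) and Bcam, a receptor for Lama5 trimers (0.79 ± 0.20 and 0.91 ± 0.20), rose in both models. The Pkd1 call of Bcam was lost under quantile scaling, by edgeR, with each model fitted alone and with a replicate block. Both Bcam calls were lost without the filter on low values.

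Of 24 cytoplasmic adaptors and activators, Parvg, a parvin of blood cells, and Vcl, which links adhesions to actin, rose in both models (Parvg by 0.87 ± 0.17 and 1.34 ± 0.17, Vcl by 0.87 ± 0.19 and 0.82 ± 0.19). The leukocyte kindlin Fermt3 (1.05 ± 0.22) and the actin crosslinker Flna (1.16 ± 0.29) rose in the Pkd2 model, and Tns1 (-1.19 ± 0.28) and Tln2 (-0.62 ± 0.18) fell there. Of the 4 partners that fell in the Pkd2 model, Tns1 alone was called under quantile scaling (limma adjusted p = 0.0318) or without mitochondrial and small RNAs (0.0167), while Ltbp1, Tinag and Tln2 lay between 0.0554 and 0.0894 under those settings. With the Pkd2 model fitted alone none of the 4 was called, and the Pkd2 calls of Vcl, Flna and Smoc2 were lost as well. In the Pkd1 model the number of called partners was 3 without control replicate 1, 1 without control replicate 2, 3 without knockout replicate 1, 4 without knockout replicate 2, 7 without either Pkd2 control library and 20 without Pkd2 knockout replicate 2. In the Pkd2 model it was 6 without either Pkd2 control library and 8 without Pkd2 knockout replicate 2.

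In mIMCD-3 cells the deposited table holds genes selected by the authors' own test, and it lists 6 members. Lamc1, Itga6 and Lama5 were lower with the Hoxb3os gapmer and Itga3, Lamb3 and Itgb6 higher. Since 100% of the listed genes were called to 3 digits (2015 of 2016, 44.4% higher and 55.6% lower), nothing is read from the number of members called. Hoxb3os itself has no row in the table, so the knockdown was not checked here.

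Lamc1 had 6176, 6376 and 6245 normalised counts with the Hoxb3os gapmer, against 9593 and 9774 with the control gapmer, the largest difference among the 6 (log2 difference -0.63 ± 0.04, limma adjusted p = 2.3e-15). Itga6 had 3320, 3307 and 3265 with the Hoxb3os gapmer, against 3842 and 4145 with the control gapmer (-0.28 ± 0.05). Lama5 had 16677, 18015 and 17888 with the Hoxb3os gapmer, against 19643 and 20335 with the control gapmer (-0.19 ± 0.04). In all 3 genes the gapmer libraries lay below the control libraries.

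Itga3 had 15261, 17384 and 16486 with the Hoxb3os gapmer, against 14165 and 13958 with the control gapmer (0.22 ± 0.05). Lamb3 had 1460, 1673 and 1589 with the Hoxb3os gapmer, against 1352 and 1234 with the control gapmer (0.28 ± 0.06). Itgb6 had 696, 596 and 650 with the Hoxb3os gapmer, against 536 and 456 with the control gapmer (0.39 ± 0.09). These groups did not overlap either, and the limma adjusted p of the 5 genes after Lamc1 lay between 5.7e-06 and 0.00024. Since the authors selected the listed genes on these same libraries, these p-values describe the spread between libraries and are no independent test. In the kidneys Lama5, Itga3 and Lamb3 rose in Pkd1 knockout kidneys as described above, while Lamc1, Itga6 and Itgb6 were not called.

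In the authors' deposited table for the kidneys, which gives control against knockout, 11 of 37 members had an adjusted p below 0.05 in the Pkd1 model (9 higher and 2 lower in knockouts) and 13 in the Pkd2 model (12 higher and 1 lower). Over all listed genes 7.94% and 10.3% passed there. Itga2 and Itgb2 passed in the authors' deposited table in the Pkd1 model, and Itgae and Lamc3 in the Pkd2 model, beside genes already called here. Lama1, which fell here in the Pkd2 model, did not pass there in the authors' deposited table (adjusted p = 0.114), and the lower member counted there was Lamc3.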

How the data were processed

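The members and gene lists were chosen with earlier results of these data known. Per gene and library, the authors deposited a scaled signal for the kidneys, and the log2 fold changes and adjusted p-values that the authors deposited are theirs. The submitters' processing notes name edgeR, RSEM 1.2.22, Cufflinks 2.2.1, STAR 2.4.2a and FastQC 0.11.2 for kidneys (mm10), and DESeq2 1.12.3, SAMtools 1.0, STAR 2.4.2a and Trimmomatic 0.32 for cells (GRCm38). The strand setting was not given in the sources used here. Overlapping antisense genes therefore cannot be told apart. The values deposited for the cells are a signal of normalised counts, for genes with an adjusted p-value up to 0.05.

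Values were put on a log2(value + 1) scale, which understates changes of low genes, and kept where at least 2 libraries reached 1. One limma-trend fit (limma 3.58.1, R 4.3.3) covered the 4 kidney groups and another the cells, with Benjamini-Hochberg adjustment over 14637 and 2016 genes. Low values are multiples of what 1 read is worth, and 92.8% to 95.0% of a library's nonzero values were whole to within 0.02 read. The step of Pkd1 control replicate 1, its most common low value, is the least certain. Count tests on these rounded reads called 1534 genes (Pkd1 model) and 2382 genes (Pkd2 model) by edgeR 4.0.16, and 2203 and 3036 by DESeq2 1.42.0. Neither table held raw counts, so limma was the main test. Replicate numbers shared by groups were not treated as pairs. Levels per kb use exon lengths of GENCODE vM21 (the union of all exons listed for a gene), whose gene spans matched the files for 27 of the 37 members. All members enter the counts, and 1 of them is not reported here by name. Of the partner lists at most 4 called genes with the smallest adjusted p per list, direction and model are named. All 8 libraries were left out in turn. The kidney fit was also run on simulated counts, whose spread was set beforehand and not taken from these libraries. That run does not check the fit at the spread seen here.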

Additional observations from a re-analysis of the deposited data

How the results depend on the processing

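No called member changed sign under any alternative. Numbers of called members moved by over 1.5 times as follows. Without the filter on low values (28183 genes tested) 0 of 34 members were called in the Pkd1 model, against 9 with the filter. In the Pkd2 model 2 were called, against 12. Partner genes called were 4 and 5, against 13 and 19, and all genes called were 394 and 1292, against 1550 and 2587. DESeq2 called 14 members in the Pkd1 model and 1 for the difference between models, against 0. Over all tested genes DESeq2 called 2203 in the Pkd1 model, against 1550, and 184 for the difference, against 1. With each model fitted alone 5 members and 12 partners were called in the Pkd2 model, and 1366 of all tested genes, against 2587. The members lost were Lama3, Itga2, Itga3, Itga11, Itgal, Itgax and Itgb2. With a Y-linked covariate 4 members were called between ages, against 7, and 1077 of all tested genes, against 1801. Leaving out 1 library gave 2 to 15 members in the Pkd1 model, 2 to 17 in the Pkd2 model and 1 to 9 between ages, and 1 to 20 and 6 to 28 partners in the Pkd1 and Pkd2 models. The causes were not tested. DESeq2 split the age calls 3 higher and 4 lower, and the Pkd2 partner calls were 16 higher and 1 lower under quantile scaling and 20 higher and 1 lower without mitochondrial and small RNAs, against 15 and 4. That last scaling shifted the median of all genes between ages by -0.13.

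Knockout and control libraries of the same number did not deviate together (correlations of -0.38 in the Pkd1 and -0.05 in the Pkd2 model), while same-numbered knockouts of the 2 models did (0.34). The other 3 pairs of groups lay between -0.21 and -0.04. No label says that a number marks a shared batch, so the libraries share only a number. With a replicate block 8 and 11 members were called in the Pkd1 and Pkd2 models, 0 for the difference, 6 between ages, and 9 and 15 partners. Over all tested genes the block gave 1231 and 2200 calls in the Pkd1 and Pkd2 models, against 1550 and 2587. Between ages it gave 1511 calls, against 1801. The members no longer called were Itga3 in the Pkd1 model, Lama1 in the Pkd2 model (limma adjusted p = 0.0543, leaving 11 higher and 0 lower) and Itgb3 between ages, and the Pkd2 partners were 14 higher and 1 lower (Tns1). Crossing the numbers of the Pkd1 controls, an alternative chosen after seeing the data, gave 11 and 15 members. Over all tested genes it gave 1714 and 2915 calls. Count tests on the cell values were not run, since those values did not come out as whole reads. With 2 libraries per group, depth limits low members most, and Itgad had 0 to 4 recovered reads in each library, Itgae 6 to 25 and Itgb7 5 to 33. Itgax had 46 and 160 in the Pkd2 knockouts and 2 to 22 in the other libraries.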
